A study of Mus musculus with 16 samples.

Results

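Axon guidance genes encode ligands and receptors of 8 families, the semaphorins with their plexin receptors, the ephrins with the Eph receptors, the Slit ligands with the Robo receptors, and the netrins with the Unc5 receptors. Their levels were read in endothelial cells sorted from liver, lung and heart, and the change between control libraries and libraries labelled as Erg and Fli1 double knockout was measured in each organ. Genes were chosen by symbol alone (Sema, Slit or Ntn followed by a digit, Plxn, Epha, Ephb, Efna, Efnb, Robo or Unc5), which matched 70 of the 52636 genes in the table. Of these, 58 reached at least 1 CPM (read counts scaled to the effective library size) in at least 2 of the 16 libraries, and 12 did not. The 58 hold all 20 semaphorins, all 9 plexins, 7 of 8 ephrins, 9 of 14 Eph receptors, 2 of 3 Slit genes, all 4 Robo genes, 2 of 3 netrins and 3 of 4 Unc5 genes that matched. They also hold 2 genes that share only the first letters of the name, Unc50 and the antisense transcript Plxna4os1, so that 56 belong to the families. By second-highest library, Epha3 (1.01 CPM), Sema5b (1.07 CPM) and Efna2 (1.37 CPM) lay just inside the level rule, and Ephb2 (0.920 CPM), Slit1 (0.547 CPM) and Ntn5 (0.435 CPM) just outside it. All 58 entered the tests, and 26 reached 1 CPM in every library.

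The 6 groups were labelled as wild-type or as Erg and Fli1 double-knockout mice, with 3 libraries under each label for liver, 3 of each for lung and 2 of each for heart. All mice, controls included, had received tamoxifen, and cells were taken on day 10 after it. The labels name neither the Cre driver nor the age or strain of the animals, and do not say whether every library is a separate animal, so that the spread between libraries may in part be technical. The cells carried an antibody against VE-cadherin injected into the living animal, were freed with collagenase and dispase, and were sorted as live, CD45-negative, CD31-positive and VE-cadherin-positive.

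In the nervous system these ligands attract or repel growing axons, and blood vessels use many of the same pairs. Secreted class 3 semaphorins act through plexins, most of them with a neuropilin as co-receptor, and the plexin's cytoplasmic part acts on small GTPases. Ephrins sit on the cell surface and signal by contact with Eph receptor tyrosine kinases on the neighbouring cell, where ephrin-B2 marks arterial and EphB4 venous endothelium. Robo4 is the Robo receptor found mainly in endothelium, and Unc5b is the netrin receptor family member best known from vessels. Erg and Fli1 are ETS factors, which bind DNA around the core GGAA.

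The promoters of 3 genes are shown because the changes below turn on them: Robo4 and Efna1, which were lower in the knockout-labelled libraries of all 3 organs, and Sema4b, which had the smallest adjusted p of all members in heart. Sequences are RefSeq windows (GRCm38.p6), read in the direction of the gene. They stop where an annotated exon of the gene begins, except for a 30-base site in Robo4, which lies in the 5′ untranslated region of annotated transcripts. Capitals mark the letters CAGGAAG or their reverse complement, a form of the ETS motif.
Robo4, chr9:37401722-37401896, plus strand: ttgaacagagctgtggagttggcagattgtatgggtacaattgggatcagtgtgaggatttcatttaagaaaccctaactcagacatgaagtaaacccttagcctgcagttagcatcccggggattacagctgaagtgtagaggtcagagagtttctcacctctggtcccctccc
Robo4, chr9:37401910-37401939, plus strand: atgagggccaggCAGGAAGcatccgtttcc
Efna1, chr3:89279646-89279895, minus strand: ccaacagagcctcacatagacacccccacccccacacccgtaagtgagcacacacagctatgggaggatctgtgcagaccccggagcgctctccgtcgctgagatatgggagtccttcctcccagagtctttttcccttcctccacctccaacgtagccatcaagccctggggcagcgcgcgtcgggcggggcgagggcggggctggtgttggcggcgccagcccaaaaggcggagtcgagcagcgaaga
Sema4b, chr7:80198338-80198440, plus strand: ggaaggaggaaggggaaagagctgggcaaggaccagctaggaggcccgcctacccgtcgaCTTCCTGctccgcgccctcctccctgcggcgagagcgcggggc
In Robo4 the motif began 50 bases before the RefSeq start, and in Sema4b 190 bases before it, on the opposite strand. Efna1 and Sema4b each have another RefSeq window at an outer start. Neither Efna1 window held CAGGAAG or CCGGAAG on either strand, and the outer Sema4b window held neither. A RefSeq window was found for 50 of the 58 genes. Within 250 bases before the start, 11 of these 50 (22.0%) held CAGGAAG or CCGGAAG, against 19.0% of all genes with a window. CAGGAAG was in 8 of the 50 and in 12.1% of all genes with a window, and CCGGAAG in 3 of the 50 and in 7.83% of all genes. A match describes these letters only and is not a binding site.

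Total counts per library ran from 30226340 to 41449054. Erg itself fell in liver (log2 −1.31, adjusted p = 1.54e-05) and lung (log2 −0.52, adjusted p = 0.0231) and had log2 −0.47 in heart (adjusted p = 0.0538; edgeR, Benjamini-Hochberg), whereas Fli1 had log2 0.38 in liver (adjusted p = 0.1) and 0.02 in heart (adjusted p = 0.978) and was higher in knockout-labelled lung (log2 0.69, adjusted p = 0.0131). Fli1 counts thus fell in no organ, the deleted part of either gene is not stated in the labels, and the groups are called knockout-labelled throughout. The endothelial marker list (10 genes) was above every other cell type list in each library, with a summed level of 14198 to 15850.1 CPM in liver controls and 9784 to 12800.5 CPM in knockout-labelled liver, 15944 to 16368 and 9397 to 12334 CPM in lung, and 13060.2 to 13294 and 7876 to 8895 CPM in heart. In each organ 5 of its 10 genes were lower, and 1 was higher in lung. The list holds Erg itself, which is among the lower genes in liver and lung. Lists of other cell types and of other kinds of endothelium differed between genotypes too. In heart the lung epithelium list had 8.24 to 11.6 CPM in the controls and 109 to 161 CPM under the knockout label (5 of 10 higher, none at 0), the leukocyte list 11.8 to 37.5 and 125 to 231 CPM (3 of 9 higher), and the fibroblast list 959 to 1027 and 1675 to 1875 CPM (0 of 10 passed). In lung the first and second of these lists had 2144 to 3369 CPM in the controls and 448 to 684 CPM under the knockout label (4 of 10 lower) and 457 to 549 and 65.9 to 194 CPM (1 of 9 lower). In liver the hepatic stellate list had 99.1 to 138 CPM in the controls and 564 to 829 CPM under the knockout label (2 of 7 higher), and the endocardium list 658 to 745 and 2375 to 3014 CPM (1 of 5 higher). The endocardium list does not mark endocardium alone. It had 185 to 434 CPM in heart controls and 2569 to 3529 CPM in lung controls. The neural and Schwann list had 2.89 to 4.69 and 14.2 to 20.3 CPM in liver and 5.19 to 7.57 and 21.8 to 32.0 CPM in heart (2 of 7 higher in each, with Elavl4 and Snap25 at 0 in every liver library). The lymphatic endothelium list had 3849.5 to 4399 and 1284 to 2323 CPM in liver (2 of 5 lower, Ccl21a at 0). The median log2 change of its tested genes there was 0.87, so the summed level and the typical gene went opposite ways. Controls of the other organs had less of this list, with 1164 to 1701 CPM in lung and 275 to 297 CPM in heart. Its level in liver thus cannot be read as an amount of lymphatic cells. The hepatocyte list had 761 to 2661 CPM in liver controls and 597 to 897 CPM under the knockout label, with overlap (2 of 8 lower). Lower sums were also seen in heart, where the pericyte and smooth muscle list had 1064 to 1130 CPM in the controls and 670 to 892 CPM under the knockout label (0 of 10 passed). The cardiomyocyte list in heart had 150 to 236 and 132 to 157 CPM, with overlap (3 of 8 lower). Knockout-labelled liver library 3 stood apart, with 167 CPM of pericyte and smooth muscle markers against 59.2 and 21.8 CPM in the other knockout-labelled liver libraries. The cardiomyocyte list had 7.65 to 11.9 CPM in lung controls and 42.2, 158 and 19.7 CPM under the knockout label (1 of 8 higher). Knockout-labelled lung library 2, the highest of these, also had 922 CPM of fibroblast markers against 456 and 444 CPM in the others and 399 to 713 CPM in the controls. The same library had the highest lung values of Epha4, Sema5a, Unc5b and Unc5c, which are given below. Endocardium and lymphatic endothelium are endothelial too, so these 2 lists do not tell other cells from a change in the sorted ones. Whether other cells contribute to the guidance gene levels was not tested.

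The guidance genes with the highest levels were not the same in the 3 organs. Per kilobase of annotated exon, which allows genes to be set against each other, Plxnd1 was the highest in liver (398 ± 63.7 CPM per kb, SD over libraries), with every library above the next gene. Plxnd1 encodes the endothelial receptor of semaphorin 3E. Robo4 (219.7 ± 14.6), Plxnc1 (211 ± 13.9), Ephb4 (181 ± 24.4) and Ntn4 (167 ± 25.9 CPM per kb) followed, and neighbours among these overlapped between libraries. In lung the order began with 2 secreted semaphorins, Sema3g (303 ± 21.8 CPM per kb), which lay above the next gene in every library, and Sema3c (210.2 ± 28.5). Efnb1 (200.0 ± 12.5), Sema3f (199.9 ± 14.6) and Efnb2 (172 ± 15.1 CPM per kb) came next, and from Sema3c to Efnb2 no gene was above its follower in every library. In heart Plxnd1 (316 ± 82.8 CPM per kb), Sema7a (209 ± 20.4) and Robo4 (143 ± 0.609) led, each above the next gene in both libraries, ahead of Ephb4 (98.5 ± 9.96) and Efnb1 (89.4 ± 16.5 CPM per kb). In the knockout-labelled libraries Plxnd1 still led in liver (216 ± 38.0 CPM per kb), while Sema3f led in lung (184 ± 2.98, above the next gene in every library) and Sema7a in heart (214 ± 25.6 CPM per kb, not above Sema3g in every library).

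**Figure D1:**
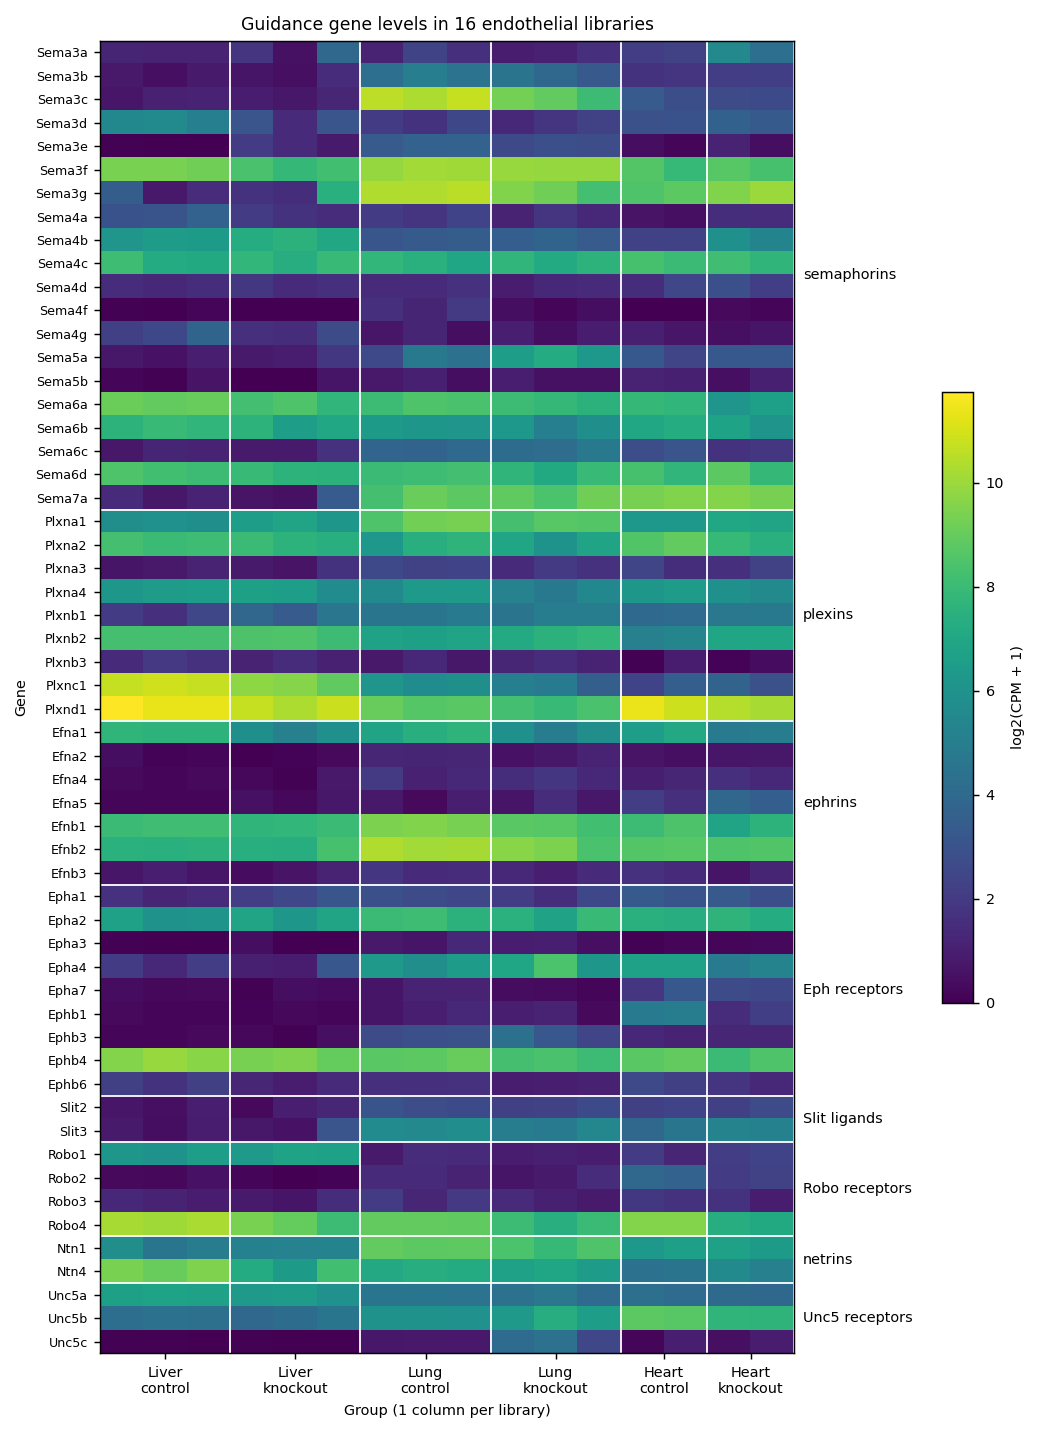
Level of each of the 56 family members in the 16 libraries, as the colour of log2 of CPM plus 1, with genes in rows by family and 1 column per library. In the controls Sema3c is brightest in lung, Sema3g and Sema7a are brighter in lung and heart than in liver, and Plxnc1 and Robo1 are brightest in liver.

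Control libraries of the 3 organs were compared first. In bulk samples such as these, fewer cells of a type and less RNA per cell cannot be told apart. Between lung and liver 31 members were higher and 16 lower in lung (edgeR quasi-likelihood test, Benjamini-Hochberg adjusted p below 0.05), against 47.0% of all 19646 genes tested that passed in either direction (24.6% higher, 22.4% lower). Between heart and liver 25 were higher and 16 lower in heart (background 47.6%, with 23.8% higher and 23.9% lower). Between heart and lung 9 were higher and 17 lower in heart (background 29.5%, with 13.5% higher and 16.1% lower). The comparisons share control libraries, so that their counts are not independent. Leaving out libraries one at a time ended 3 of the 47, 10 of the 41 and 7 of the 26 calls, and none of the tests printed in the next 2 paragraphs.

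Sema3c, a secreted ligand of neuropilin and plexin receptors, had 1540.3, 1281 and 1682 CPM in lung controls, 0.659, 1.09 and 1.28 CPM in liver controls and 9.20 and 6.10 CPM in heart controls. Lung thus stood above both other organs in every library (log2 10.55, SE 0.450, adjusted p = 1.29e-09 against liver, and log2 −7.62, SE 0.473, adjusted p = 1.16e-07 for heart against lung). Sema3g had 1323, 1317 and 1491 CPM in lung, 360.4 and 446 CPM in heart and 9.88, 0.749 and 1.79 CPM in liver controls. Sema7a, a membrane-anchored semaphorin whose plexin receptor is plexin C1, had 313, 537 and 443 CPM in lung, 643 and 738 CPM in heart and 1.69, 0.715 and 1.25 CPM in liver controls. Its receptor gene Plxnc1 ran the other way, with 1690.2, 1894 and 1696 CPM in liver, 68.3, 51.1 and 56.0 CPM in lung and 4.18 and 10.4 CPM in heart (log2 −7.91, SE 0.635, adjusted p = 4.85e-07 for heart against liver). By mean, ligand and receptor were thus each highest in the organ where the other was lowest.

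Liver controls also stood above the other organs for Robo1, a receptor of Slit ligands, with 74.1, 64.1 and 92.7 CPM against 0.824, 1.83 and 1.65 CPM in lung and 3.13 and 1.41 CPM in heart (log2 −5.75, SE 0.325, adjusted p = 1.16e-08 for lung against liver). The Slit ligands were low in liver controls, with 0.671 ± 0.284 CPM of Slit2 and 0.681 ± 0.266 CPM of Slit3 against 6.09 ± 1.10 and 48.9 ± 3.79 CPM in lung controls. Sema4b was at 69.7, 86.0 and 83.8 CPM in liver, 7.87, 8.98 and 10.1 CPM in lung and 3.98 and 3.85 CPM in heart (log2 −4.35, SE 0.243, adjusted p = 2.97e-08 for heart against liver). Unc5b was highest in heart, at 441 and 409 CPM against 65.2, 64.9 and 61.2 CPM in lung and 18.1, 20.8 and 19.5 CPM in liver (log2 4.45, SE 0.258, adjusted p = 3.63e-08 for heart against liver). Unc5a, another netrin receptor, was highest in liver (105 ± 5.72 CPM, against 22.4 ± 0.841 in lung and 17.5 ± 2.05 CPM in heart). Plxna1 led in lung (541 ± 154 CPM, against 57.1 ± 2.63 in liver and 75.9 ± 1.21 CPM in heart), and Ephb1 in heart (29.8 ± 1.68 CPM, against 1.01 ± 0.424 in lung and 0.166 ± 0.0394 CPM in liver).

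**Figure D2:**
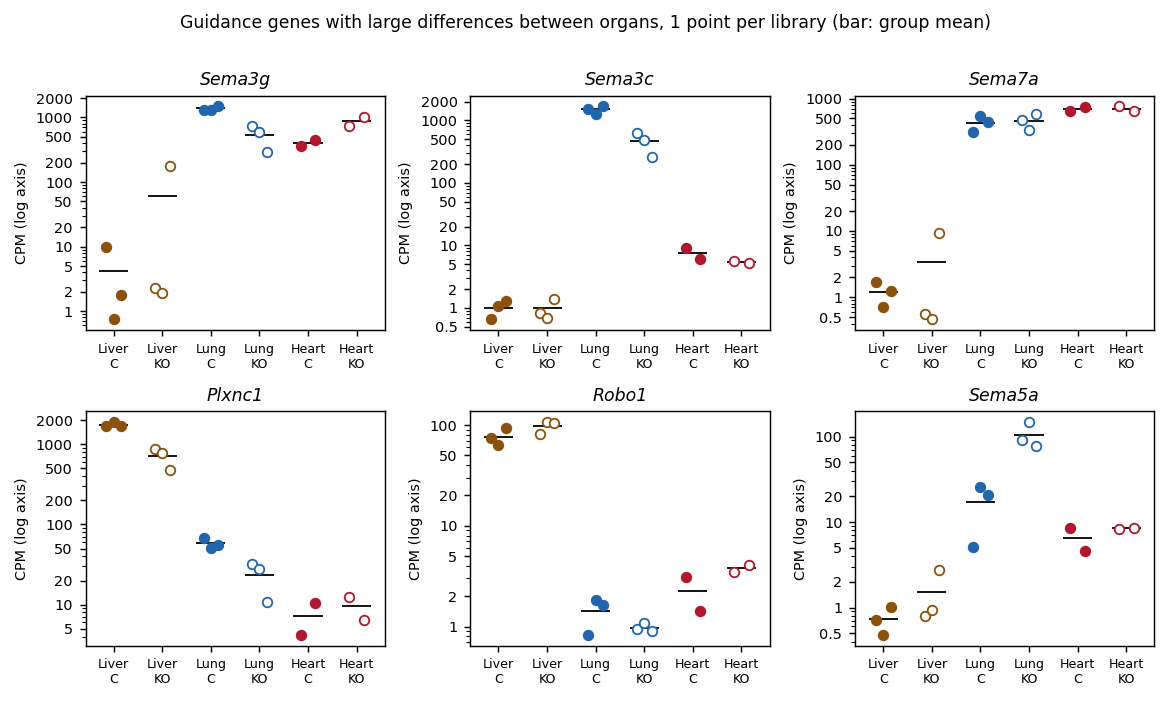
CPM on a log axis of 6 guidance genes with large differences between organs, with 1 point per library, filled for controls (C) and open for knockout-labelled libraries (KO), and a bar at the group mean. Sema3c lies at 1281 to 1682 CPM in lung controls and at 9.20 CPM or less in liver and heart controls, and knockout-labelled liver library 3 lies far above the other liver libraries for Sema3g and Sema7a.

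Between genotypes, guidance genes moved in both directions in every organ. In liver 5 members were higher and 10 lower in the knockout-labelled libraries, 25.9% of the 58, against 19.4% of all genes tested (9.54% higher, 9.87% lower). In lung 4 were higher and 9 lower, 22.4%, against 8.46% (4.35% higher, 4.11% lower). In heart 5 were higher and 9 lower, 24.1%, against 19.3% (10.2% higher, 9.09% lower). Among the 15898 genes that also met the level rule, 23.1%, 10.1% and 22.7% passed in liver, lung and heart. The median log2 change of the members was −0.07, −0.52 and 0.01, and that of all genes tested 0.02, −0.02 and 0.01. In liver and heart the members' share of calls was thus near the background, and in lung above it. The lung count of 9 lower members depended on single libraries and was 4 without control library 2, 3 without control library 3 and 3 without knockout-labelled library 2. The heart count of 5 higher members was 2 without heart control library 2, 3 without heart knockout-labelled library 1 and 9 without liver knockout-labelled library 3, which entered through the shared estimate of spread. The heart count of 9 lower members was 5 without control library 1 and 4 without knockout-labelled library 1. The share of all genes that passed in these smaller fits is not given, so these counts cannot be set against a background.

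Across organs, 2 members passed in all 3, Efna1 and Robo4, both lower each time. None was higher in all 3. A further 9 members passed in 2 organs, 18 in 1 organ and 29 in none. Sema4a, Sema4f and Unc5b were higher in 1 organ and lower in another. The share of all genes with these patterns was not computed, so the counts describe these members only.

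**Figure D3:**
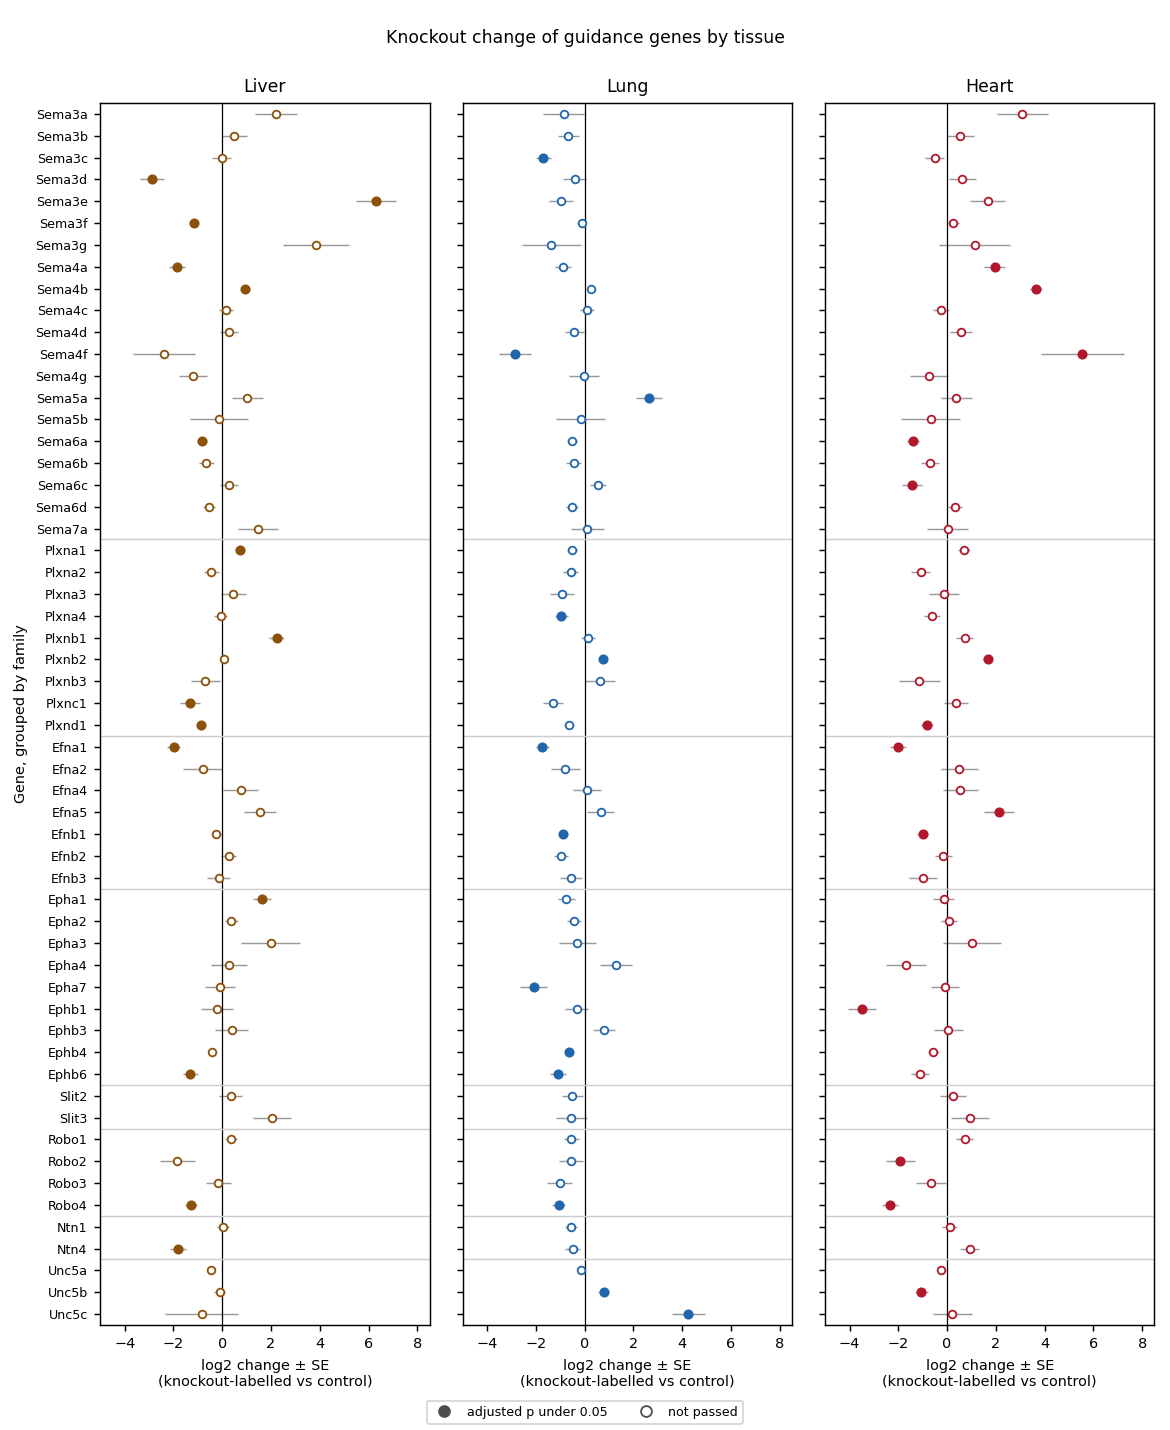
Log2 change between knockout-labelled and control libraries for each of the 56 family members (rows, by family) in liver, lung and heart, with bars of 1 standard error on each side; filled points passed an adjusted p of 0.05. Robo4 and Efna1 lie to the left of 0 with filled points in all 3 panels, and the far points for Sema3e in liver and Sema4f in heart rest on 2 and 0 control counts.

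Among the Robo receptors, Robo4 (chromosome 9, 37401897 to 37415115, plus strand in GRCm38) fell in every organ. Its levels in liver were 1195, 1077 and 1223 CPM in the controls against 671, 495 and 268 CPM in the group labelled knockout (log2 −1.29, SE 0.257, adjusted p = 0.00293, edgeR). In lung it had 493, 481 and 473 CPM against 264, 167 and 256 CPM (log2 −1.07, SE 0.256, adjusted p = 0.0188). In heart it had 755 and 759.9 CPM against 159.6 and 139 CPM (log2 −2.34, SE 0.325, adjusted p = 0.000366). No knockout-labelled library overlapped the controls of its organ. The liver and heart calls held without any 1 library, and the lung call was lost without lung control library 1, 2 or 3 or lung knockout-labelled library 2 (adjusted p 0.0502 to 0.0741), with the same direction. Robo2, an axonal Slit receptor, fell in heart from 14.6 and 12.1 to 3.16 and 3.92 CPM (log2 −1.92, SE 0.594, adjusted p = 0.0369). That call was lost without heart control library 1 or 2, heart knockout-labelled library 1 or 2 or lung control library 3 (adjusted p 0.0519 to 0.2). With the replicate numbers of the sample descriptions as a block it was lost too (adjusted p = 0.0811). Robo1 and Robo3 passed in no organ, nor did Slit2 and Slit3. Slit3 in liver ranged from 0.374 to 0.851 CPM in the controls and was 0.677, 0.493 and 7.44 CPM in the knockout-labelled group, so that library 3 alone stood high (log2 2.04, adjusted p = 0.0824).

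Among the ephrins, Efna1 (chromosome 3, 89271733 to 89281142, minus strand), a membrane-anchored ligand of EphA receptors, fell in every organ. Liver had 205, 192 and 194 CPM in the controls against 56.9, 34.1 and 58.0 CPM in the group labelled knockout (log2 −1.99, SE 0.269, adjusted p = 0.000172). Lung had 114, 168 and 200.4 against 59.4, 31.0 and 54.8 CPM (log2 −1.73, SE 0.267, adjusted p = 0.0014), whereas heart had 95.8 and 137 against 28.4 and 29.4 CPM (log2 −2.01, SE 0.331, adjusted p = 0.00106). The groups were apart in each organ, and all 3 calls held without any 1 library. Efnb1, a transmembrane ligand of EphB receptors, fell in lung from 688, 735 and 648 to 431, 413 and 292 CPM (log2 −0.87, SE 0.190, adjusted p = 0.0119). In heart it fell from 268 and 349 to 116 and 192 CPM (log2 −1.0, SE 0.233, adjusted p = 0.00923), a call that was lost without heart control library 2 or heart knockout-labelled library 1 (adjusted p 0.0887 to 0.111). Liver had 259, 280.4 and 281 against 207, 221 and 259 CPM and did not pass (log2 −0.25, adjusted p = 0.384). Efna5 rose in heart, from 3.40 and 2.05 to 13.5 and 10.3 CPM (log2 2.13, SE 0.626, adjusted p = 0.0293), and the call was lost without heart control library 1 or 2 or heart knockout-labelled library 1 or 2 (adjusted p 0.0568 to 0.192).

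Efnb2 (chromosome 8, 8617434 to 8661242, minus strand), the arterial ephrin, passed in no organ. In lung it had 1293, 1094 and 1148 CPM in the controls against 801, 680.3 and 331 CPM in the knockout-labelled group, with no overlap between the groups (log2 −0.96, SE 0.294, adjusted p = 0.0595). Estimate ± 2 SE spans log2 −1.55 to −0.37 there, and the gene passed with DESeq2 (adjusted p = 0.0176), without the filter on low counts (0.0291), without liver knockout-labelled library 3 (0.0162) and without lung knockout-labelled library 1 (0.0386). Heart had 392 and 418 against 359 and 373 CPM (log2 −0.15, adjusted p = 0.822). Liver had 183, 173 and 186 against 167, 157 and 325 CPM, where 1 library lay above and the others below the controls (log2 0.26, adjusted p = 0.58, and log2 −0.16 without library 3). Its receptor gene Ephb4 (chromosome 5, 137350109 to 137378669, plus strand), the venous member of the pair, fell in lung from 426, 447 and 520.0 to 311, 328 and 262 CPM (log2 −0.63, SE 0.175, adjusted p = 0.0403). The lung call was lost without heart control library 1 or 2, liver control library 3, lung control library 1, 2 or 3 or lung knockout-labelled library 1, 2 or 3 (adjusted p 0.0516 to 0.15). Liver had 746, 967 and 812 against 649, 722 and 499.7 CPM (log2 −0.43, adjusted p = 0.102), and heart 424 and 489.8 against 257 and 363 CPM (log2 −0.56, adjusted p = 0.0839). The groups did not overlap in these organs either, and estimate ± 2 SE spans log2 −0.78 to −0.08 in liver and −0.99 to −0.13 in heart, where Ephb4 passed with DESeq2 (adjusted p = 0.048) and without heart knockout-labelled library 2 (0.0419). The marker lists of their vessel types hold Efnb2 and Ephb4 themselves, which make up much of the sums. The differences below thus partly repeat the values above, and sums without these genes are not given. The arterial list summed to 1095 to 1205 CPM in liver controls and 753 to 989.5 CPM under the knockout label (3 of 7 lower), 2179 to 2554 and 976 to 1537 CPM in lung (2 of 7 lower), and 1253 to 1502 and 1029.8 to 1058 CPM in heart (3 of 7 lower, 1 higher). The venous list summed to 1524 to 1803 and 1217 to 1450.0 CPM in liver (1 of 4 higher), 3270.2 to 3672 and 1749 to 3384 CPM in lung (2 of 4 lower), and 1120.5 to 1581 and 657 to 786 CPM in heart (1 of 4 lower). The part of vessel type in the values of Efnb2 and Ephb4 was not tested.

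The other Eph receptors that passed were mostly of low level. Ephb6, whose product lacks kinase activity, fell in liver from 3.66, 2.31 and 3.68 to 1.39, 0.841 and 1.66 CPM (log2 −1.31, SE 0.309, adjusted p = 0.00841). In lung it fell from 2.13, 2.11 and 2.15 to 0.946, 0.951 and 1.09 CPM (log2 −1.09, SE 0.311, adjusted p = 0.0441). The lung call was lost without heart control library 1 or 2, liver control library 1 or 3, liver knockout-labelled library 1, lung control library 1, 2 or 3 or lung knockout-labelled library 1, 2 or 3 (adjusted p 0.0533 to 0.11), and without the filter on low counts (adjusted p = 0.0897). Ephb1, a receptor of B-class ephrins, fell in heart, the organ where it was highest, from 28.6 and 31.0 to 1.79 and 3.53 CPM (log2 −3.49, SE 0.565, adjusted p = 0.000969), and this held without any 1 library. Epha7 fell in lung from 1.03 ± 0.387 to 0.238 ± 0.0793 CPM (log2 −2.08, adjusted p = 0.032), a call lost without lung control library 2 or 3 or lung knockout-labelled library 1, 2 or 3 (adjusted p 0.0642 to 0.117). Epha1 was higher in knockout-labelled liver (1.71 ± 0.435 against 5.31 ± 2.26 CPM, log2 1.63, adjusted p = 0.00651). Exons of Epha1 share 236 bases with exons of Zyx on the opposite strand, which averaged 315 CPM over the libraries, so that the count of Epha1 is uncertain where strand was not used.

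**Figure D4:**
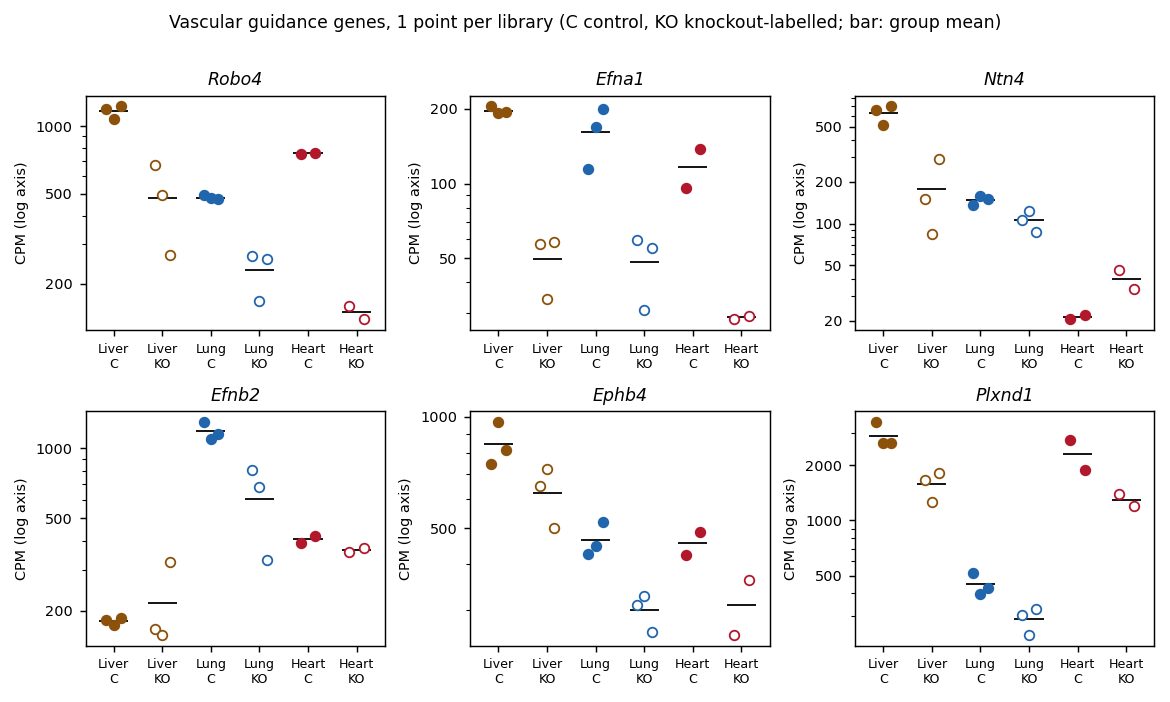
CPM on a log axis of Robo4, Efna1, Ntn4, Efnb2, Ephb4 and Plxnd1, with 1 point per library, filled for controls (C) and open for knockout-labelled libraries (KO), and a bar at the group mean. Every open point of Robo4 and Efna1 lies below the filled points of its organ, whereas those of Efnb2 lie on both sides of the controls in liver and below them in lung and heart.

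Of the 20 semaphorins, 2 rose and 4 fell in liver, 1 rose and 2 fell in lung, and 3 rose and 2 fell in heart. These are 30%, 15% and 25% of the family, against 19.4%, 8.46% and 19.3% of all genes tested. Among genes that met the level rule, 23.1%, 10.1% and 22.7% passed. Of the secreted class 3 members, 3 fell, each in 1 organ. Sema3f, which acts through neuropilin 2, fell in liver from 661, 658 and 593 to 333, 225 and 294 CPM (log2 −1.17, SE 0.189, adjusted p = 0.000669), with 953, 1096 and 1067 against 965, 937 and 962 CPM in lung (log2 −0.12, adjusted p = 0.756). Sema3d fell in liver from 44.2, 47.4 and 32.6 to 7.57, 1.68 and 7.47 CPM (log2 −2.89, SE 0.481, adjusted p = 0.000823). Sema3c fell in lung from 1540.3, 1281 and 1682 to 631, 489 and 262 CPM (log2 −1.70, SE 0.299, adjusted p = 0.00307). The groups were apart for these genes in the organs named, and the 3 calls held without any 1 library. Sema3g in lung had 1323, 1317 and 1491 against 725, 589 and 297 CPM and did not pass, although the groups were apart (log2 −1.36, SE 1.20, adjusted p = 0.557). In liver it had 9.88, 0.749 and 1.79 against 2.32, 1.89 and 176 CPM, again with library 3 alone high (log2 3.83, adjusted p = 0.0634). The spread of Sema3g was estimated over all 16 libraries, that library included. Heart had 360.4 and 446 against 743 and 1020 CPM, with the groups apart, and did not pass. Sema3e, the ligand of plexin D1, had 2 counts in the liver controls together and 178 in the knockout-labelled liver libraries, a ratio of 92.1 (95% counting interval 25.1 to 767, log2 6.31, adjusted p = 0.000141). Its highest knockout-labelled liver library had 3.09 CPM, so the gene stayed low, and the fitted change was log2 9.02 without control library 1, which held both control counts.

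The class 4 semaphorin Sema4b (chromosome 7, 80186841 to 80226527, plus strand) had the smallest adjusted p of the members in heart. It rose there from 3.98 and 3.85 to 58.4 and 38.6 CPM (log2 3.63, SE 0.243, adjusted p = 2.29e-06), 12.4-fold. In liver, where it began higher, it rose from 69.7, 86.0 and 83.8 to 152, 185 and 126 CPM (log2 0.95, SE 0.176, adjusted p = 0.00171). Lung had 7.87, 8.98 and 10.1 against 10.3, 12.6 and 9.50 CPM (log2 0.26, adjusted p = 0.432). The heart and liver calls held without any 1 library. Lung epithelium and leukocyte markers were higher in knockout-labelled heart too, as given above, and their part in the heart rise was not tested. Sema4a fell in liver from 6.88, 7.29 and 11.9 to 3.06, 2.29 and 1.82 CPM (log2 −1.86, SE 0.331, adjusted p = 0.00134) and rose in heart from 0.551 and 0.416 to 1.91 and 1.84 CPM (log2 1.95, SE 0.437, adjusted p = 0.00745). The heart call was lost without heart control library 2 (adjusted p 0.0739). Sema4f fell in lung (2.14 ± 0.842 to 0.290 ± 0.118 CPM, log2 −2.86, adjusted p = 0.018), a call lost without lung control library 1 or 3 or lung knockout-labelled library 2 (adjusted p 0.0512 to 0.085). In heart Sema4f had 0 counts in the controls and 13 in the knockout-labelled libraries, at least 3.82-fold higher at a floor of 3 counts over the group (adjusted p = 0.037), and this was lost without heart control library 1 or 2 or heart knockout-labelled library 1 (adjusted p 0.144 to 0.154).

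Of the class 5 to 7 semaphorins, Sema5a rose in lung from 5.04, 25.7 and 20.8 to 91.2, 148 and 77.0 CPM (log2 2.62, SE 0.535, adjusted p = 0.0081), and the call held without any 1 library although control library 1 was low. Sema6a, a transmembrane ligand of plexins A2 and A4, fell in liver from 552, 491 and 517 to 299, 360.0 and 215 CPM (log2 −0.83, SE 0.197, adjusted p = 0.00846). In heart it fell from 228 and 211 to 70.0 and 98.5 CPM (log2 −1.38, SE 0.244, adjusted p = 0.0017). Both calls held without any 1 library. Lung had 263, 365 and 335 against 265, 223 and 187 CPM, and these overlapped (log2 −0.51, adjusted p = 0.132). Sema6c fell in heart from 6.69 ± 1.21 to 2.45 ± 0.184 CPM (log2 −1.44, adjusted p = 0.0289), a call lost without heart control library 1 or 2 or heart knockout-labelled library 1 or 2 (adjusted p 0.0669 to 0.163). Sema7a, among the highest members in lung and heart, had log2 0.11 in lung and 0.03 in heart (SE 0.683 and 0.836) and did not pass. It had 17, 16 and 293 counts in the knockout-labelled liver libraries, which entered the shared estimate of spread.

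Of the 9 plexins, 2 rose and 2 fell in liver, and 1 rose and 1 fell in each of lung and heart. These are 44.4%, 22.2% and 22.2% of a small family in liver, lung and heart, against 19.4%, 8.46% and 19.3% of all genes tested. Plxnd1 fell in liver from 3439, 2635 and 2632 to 1657, 1267 and 1803 CPM (log2 −0.88, SE 0.204, adjusted p = 0.00759). In heart it fell from 2732 and 1877 to 1387 and 1196 CPM (log2 −0.84, SE 0.250, adjusted p = 0.0319), a call lost without heart control library 1 or heart knockout-labelled library 1 or 2 (adjusted p 0.0961 to 0.265) and in a fit of the heart libraries alone (adjusted p = 0.0552). Lung had 517, 399 and 429.6 against 305, 237 and 327 CPM, lower in every library but not past the threshold (log2 −0.63, adjusted p = 0.0745). Plxnc1 fell in liver from 1690.2, 1894 and 1696 to 867, 775 and 477 CPM (log2 −1.32, SE 0.393, adjusted p = 0.0304), and this was lost without liver control library 1, 2 or 3 or liver knockout-labelled library 2 or 3 (adjusted p 0.0554 to 0.0997). Plxna4 fell in lung from 48.3, 79.5 and 77.6 to 36.5, 25.5 and 44.0 CPM (log2 −0.95, SE 0.262, adjusted p = 0.0384), and this was lost without lung control library 2 or 3 or lung knockout-labelled library 1 or 2 (adjusted p 0.0799 to 0.132) and in a fit of the lung libraries alone (adjusted p = 0.0552). The Plxna4 call was also lost with the replicate number as a block (adjusted p = 0.0558 by titles, 0.0542 by descriptions).

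The B-class plexins, receptors of class 4 semaphorins, rose wherever they passed. Plxnb2 rose in heart from 34.2 and 39.9 to 119 and 118 CPM (log2 1.67, SE 0.188, adjusted p = 8.78e-05). In lung it rose from 109.8, 101 and 114 to 145, 184 and 216 CPM (log2 0.74, SE 0.150, adjusted p = 0.00761), and in liver it had 309, 312 and 313 against 356, 369 and 261 CPM (log2 0.08, adjusted p = 0.77). Plxnb1 rose in liver from 3.24, 2.08 and 4.59 to 13.7, 9.37 and 23.4 CPM (log2 2.23, SE 0.311, adjusted p = 0.000222). The groups were apart in each of these 3 calls, which held without any 1 library. Plxna1 rose in liver from 54.9, 60.0 and 56.5 to 91.6, 115 and 73.2 CPM (log2 0.71, SE 0.203, adjusted p = 0.0249), and this was lost without liver control library 1, 2 or 3 or liver knockout-labelled library 2 (adjusted p 0.0524 to 0.0996).

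Of the netrins, Ntn4 (chromosome 10, 93640681 to 93747207, plus strand), a laminin-related basement membrane protein, fell in liver. It had 659, 516 and 701 CPM in the liver controls and 149.9, 84.6 and 294 CPM in the group labelled knockout (log2 −1.83, SE 0.328, adjusted p = 0.00141), or log2 −2.42 without knockout-labelled library 3, the highest of these. Lung had 136, 159 and 150.2 against 106, 124 and 87.3 CPM (log2 −0.49, adjusted p = 0.405). Heart began far lower and had 20.5 and 22.1 against 46.7 and 33.7 CPM (log2 0.92, adjusted p = 0.125), which passed in a fit of the heart libraries alone (adjusted p = 0.0203) and without liver knockout-labelled library 2 (0.0352) or 3 (0.0205). Ntn1, the classical netrin, passed in no organ and had 459 ± 25.2 against 313 ± 67.6 CPM in lung, where it was highest.

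Of the netrin receptors, Unc5b moved in opposite directions in lung and heart. In heart it fell from 441 and 409 to 205 and 202 CPM (log2 −1.06, SE 0.266, adjusted p = 0.0135), and this was lost without heart control library 1 or heart knockout-labelled library 1 or 2 (adjusted p 0.0672 to 0.0885). In lung it rose from 65.2, 64.9 and 61.2 to 78.4, 159.9 and 90.8 CPM (log2 0.78, SE 0.217, adjusted p = 0.04), and this was lost without heart control library 1 or 2, heart knockout-labelled library 1 or 2, liver control library 1, 2 or 3, lung control library 1, 2 or 3 or lung knockout-labelled library 2 (adjusted p 0.0542 to 0.141) and in a fit of the lung libraries alone (adjusted p = 0.0681). Unc5c rose in lung from 0.702, 0.748 and 0.725 to 16.4, 20.5 and 4.73 CPM (log2 4.25, SE 0.666, adjusted p = 0.00153), which held without any 1 library. Unc5a passed in no organ and had 101, 112 and 103 against 82.2, 88.9 and 60.6 CPM in liver, with no overlap (log2 −0.45, adjusted p = 0.0543).

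The remaining 29 members passed in no organ, among them 10 semaphorins, 3 plexins, 4 ephrins, 4 Eph receptors, both Slit genes, Robo1, Robo3, Ntn1, Unc5a and both genes that match by name only. Their log2 estimates ran from −1.20 to 3.83 in liver, −1.36 to 1.29 in lung and −1.68 to 3.09 in heart. Several were large with a large error. Sema3a, a repellent acting through neuropilin 1, had 3.42 and 4.02 CPM in heart controls and 44.8 and 18.5 CPM in knockout-labelled heart, with no overlap (log2 3.09, SE 1.05, adjusted p = 0.0547). Summed fibroblast markers were higher in these libraries too, as given above, and their part in this difference was not tested. Plxna2, a receptor of class 3 and class 6 semaphorins, had 380.4 and 488 against 235 and 175 CPM in heart (log2 −1.08, SE 0.388, adjusted p = 0.0667). Epha4, which binds ephrins of both classes, had 103 and 104 against 27.4 and 37.5 CPM in heart (log2 −1.68, SE 0.816, adjusted p = 0.172). In lung it had 79.3, 54.6 and 88.5 against 122, 347 and 74.3 CPM, where knockout-labelled library 2 stood far above the rest (log2 1.29, SE 0.657, adjusted p = 0.268). Cardiomyocyte and fibroblast markers were also highest in that lung library, as given above, and their part was not tested. Sema4c, a ligand of plexin B2, had 189 ± 76.9 and 209 ± 46.4 CPM in liver, 173 ± 50.1 and 184 ± 35.8 CPM in lung, and 288 ± 43.4 and 242 ± 54.0 CPM in heart.

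The knockout change itself was then compared between organs by an interaction term in the same fit. It differed between lung and liver for 6 members (background 6.20% of genes tested), between heart and liver for 9 (8.32%) and between heart and lung for 9 (6.40%). Calls that held without any 1 library are given here, and they share the knockout change of an organ with each other. Sema4b rose more in heart than in liver (log2 2.68, SE 0.288, adjusted p = 0.000147) and than in lung (log2 3.37, SE 0.295, adjusted p = 8.28e-05). Plxnb2 rose more in heart than in liver (log2 1.60, SE 0.238, adjusted p = 0.00133). Sema4a and Ntn4 fell in liver and had estimates of the other sign in heart (difference log2 3.81, adjusted p = 0.00113 and log2 2.74, adjusted p = 0.00558). Sema3f fell in liver and had log2 0.25 in heart (difference log2 1.42, adjusted p = 0.0101). Unc5b differed between heart and lung (log2 −1.85, SE 0.344, adjusted p = 0.0075). Against lung, the liver changes of Plxnb1 (log2 −2.09, adjusted p = 0.00942), Epha1 (log2 −2.38, adjusted p = 0.0134) and the low-count Sema3e (log2 −7.27, adjusted p = 0.000776) were higher. For Robo4 and Efna1 none of the 3 differences passed (adjusted p from 0.0799 to 0.817 for Robo4 and from 0.764 to 1 for Efna1), which does not show that the changes were equal.

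**Figure D5:**
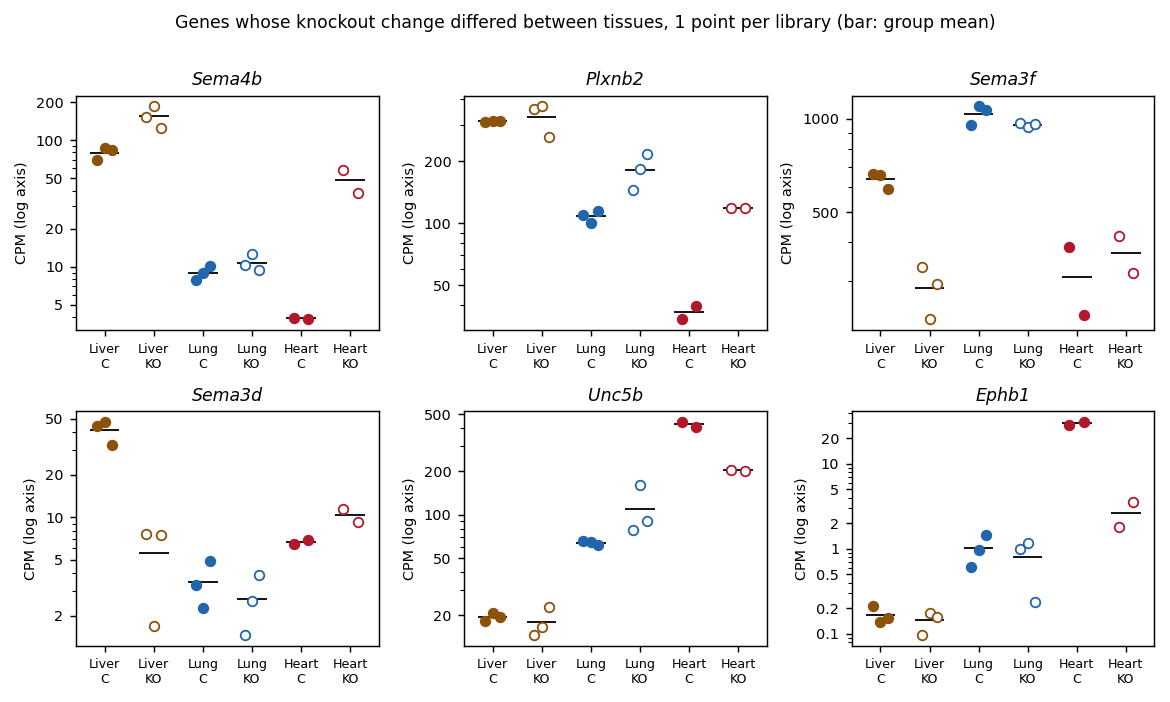
CPM on a log axis of guidance genes whose knockout change differed between organs, with 1 point per library, filled for controls (C) and open for knockout-labelled libraries (KO), and a bar at the group mean. Open points of Sema4b and Plxnb2 lie above the controls in heart, and those of Unc5b lie below them in heart and above them in lung.

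Genes that work with these ligands and receptors also moved both ways. Of 27 other guidance ligands, receptors and co-receptors tested, 3 rose and 5 fell in liver, 3 rose and 5 fell in lung, and 5 rose and 4 fell in heart. The median log2 change was 0.04, 0.13 and 0.05. Nrp2, the co-receptor of semaphorin 3F, fell in liver from 1014 ± 167 to 570.1 ± 73.8 CPM (log2 −0.83, adjusted p = 0.00291). In lung it rose from 45.0 ± 1.75 to 75.9 ± 12 CPM (log2 0.75, adjusted p = 0.0124). Gpc1, a glypican, fell in liver from 60.8 ± 8.15 to 8.33 ± 3.88 CPM (log2 −2.87, adjusted p = 0.000389). Flrt3, a membrane protein that binds Unc5 receptors, rose in lung from 3.49 ± 0.865 to 79.4 ± 58.7 CPM (log2 4.51, adjusted p = 0.00353), and L1cam, an adhesion molecule, fell in heart from 30.9 ± 3.31 to 8.89 ± 2.51 CPM (log2 −1.80, adjusted p = 0.000194). Met, the receptor of hepatocyte growth factor that associates with B-class plexins, rose in liver (log2 1.87, adjusted p = 0.00384) and heart (log2 3.11, adjusted p = 0.000805) and fell in lung (log2 −1.66, adjusted p = 0.0146). All of these counts stand against the background of 19.4%, 8.46% and 19.3% of genes tested in liver, lung and heart. Leaving out libraries was not run for the genes of this list or of the next.

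Of 66 cytoplasmic effectors of guidance receptors, 9 rose and 11 fell in liver, 8 rose and 5 fell in lung, and 15 rose and 9 fell in heart. Of all genes tested, 19.4%, 8.46% and 19.3% passed in liver, lung and heart. The median log2 changes of the effectors were 0.02, 0.17 and 0.05. Sh2d3c, an adaptor that binds Eph receptors, fell in liver from 405 ± 46.2 to 89.1 ± 20.2 CPM (log2 −2.19, adjusted p = 1.74e-05). It also fell in lung (446 ± 75.0 to 198 ± 59.9 CPM, log2 −1.17, adjusted p = 0.00443) and heart (394 ± 8.63 to 67.8 ± 7.02 CPM, log2 −2.54, adjusted p = 7.26e-05). The adaptor gene Nck1 fell in liver (log2 −1.31, adjusted p = 2.26e-05) while its paralog Nck2 rose (log2 1.91, adjusted p = 4.26e-06), from 7.84 ± 0.682 to 29.5 ± 6.96 CPM. Rgs3, whose product can bind B-class ephrins, fell in lung (log2 −1.58, adjusted p = 0.000391) and heart (log2 −1.54, adjusted p = 0.000815). Limk1, the kinase of cofilin, rose in heart from 13.7 ± 3.48 to 80.2 ± 1.76 CPM (log2 2.55, adjusted p = 4.21e-05).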

How the data were processed

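RNA of sorted endothelial cells was sequenced from 16 libraries as polyadenylated RNA, with 1 of 2 kits, of which 1 keeps strand (per the labels' protocols), and which library had which was not stated there. The authors deposited raw read counts per gene. FastQC 0.11.5, STAR 2.7.6a and GRCm38 are named per the submitters' processing notes, with the counter and its strand setting not given in the sources used here. From the deposited counts, edgeR 4.0.16 (R 4.3.3, limma 3.58.1) computed TMM-scaled CPM and a quasi-likelihood fit of 6 group means over all libraries. It was run after filterByExpr (minimum count 10, minimum total 15), with Benjamini-Hochberg adjustment over 19646 genes and a threshold of 0.05. Levels per kilobase used exon lengths of GENCODE M21. Groups came from the sample labels. Total counts of 30226340 to 41449054 limit precision for genes near 1 CPM, and intervals and floors (95% and 3 counts) cover counting error only.

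Members and lists were chosen with earlier results of these data known. All members could be named. Values in every library are given for Robo4, Ntn4, Efnb2 and Ephb4, for up to 8 further members per organ with the smallest adjusted p among those past the threshold, separated and at 10 CPM or more, and for a few others. Up to 4 genes per other list and organ, and up to 6 members per organ contrast, were named by smallest adjusted p, and values of these in other organs are given beside them. Sema3g, Sema7a and Unc5a, Sema3a, Plxna2, Epha4 and Sema4c were described after their values were seen. Alternatives were RLE normalization, DESeq2 1.42.0, no filter on low counts, a 5 CPM member minimum, fits of single organs, a replicate block, each library left out, and, chosen after seeing the data, the members without the 2 that match by name only. The code was tested on simulated data. Promoter windows came from RefSeq, and Ntn3 was not analysed here.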

Additional observations from a re-analysis of the deposited data

Results flagged for a closer look

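The knockout change (knockout-labelled against control) of 24 gene and organ pairings differed between organs by the interaction term of the edgeR fit at a Benjamini-Hochberg adjusted p below 0.05. Each value is the log2 change in the first organ minus that in the second, and calls that depend on 1 library are given with the highest adjusted p among the fits without such a library.

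Between lung and liver, Sema3e (−7.27, adjusted p = 0.000776), Plxnb1 (−2.09, adjusted p = 0.00942) and Epha1 (−2.38, adjusted p = 0.0134) differed and kept the call without any 1 library. Sema3d differed by 2.48 (adjusted p = 0.0401), lost without heart control library 1 or 2, heart knockout-labelled library 1 or 2, liver control library 1, 2 or 3, lung control library 1 or 2 or lung knockout-labelled library 2 or 3 (adjusted p up to 0.0992) and in a fit of these organs alone (2.52, adjusted p = 0.0611). Sema3f differed by 1.04 (adjusted p = 0.0316), lost without liver control library 1, 2 or 3, liver knockout-labelled library 2, lung control library 1, 2 or 3 or lung knockout-labelled library 1, 2 or 3 (adjusted p up to 0.0782). Plxna1 differed by −1.24 (adjusted p = 0.0197), lost without lung control library 3 (adjusted p up to 0.0537).

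Between heart and liver, Sema3f (1.42, adjusted p = 0.0101), Sema4a (3.81, adjusted p = 0.00113), Sema4b (2.68, adjusted p = 0.000147), Plxnb2 (1.60, adjusted p = 0.00133) and Ntn4 (2.74, adjusted p = 0.00558) differed and kept the call without any 1 library. Sema3d differed by 3.52 (adjusted p = 0.0101), lost without heart control library 1 (adjusted p up to 0.0605). Sema3e differed by −4.65 (adjusted p = 0.0287), lost without heart control library 1, heart knockout-labelled library 2 or liver control library 2 or 3 (adjusted p up to 0.146) and in a fit of these organs alone (−4.66, adjusted p = 0.0866). Sema4f differed by 7.95 (adjusted p = 0.0377), lost without heart control library 1 or 2, heart knockout-labelled library 1 or 2, liver control library 1 or 3, liver knockout-labelled library 2 or 3 or lung control library 1 (adjusted p up to 0.117). Ephb1 differed by −3.27 (adjusted p = 0.0338), lost without heart control library 1 or 2, heart knockout-labelled library 1, liver control library 1, 2 or 3 or liver knockout-labelled library 2 or 3 (adjusted p up to 0.103). The fitted values of Sema3e rest on 2 liver control counts and those of Sema4f on 0 heart control counts, so that they are no measure of size.

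Between heart and lung, Sema4b (3.37, adjusted p = 8.28e-05) and Unc5b (−1.85, adjusted p = 0.0075) differed and kept the call without any 1 library. Sema4a differed by 2.82 (adjusted p = 0.00939), lost without heart control library 2 (adjusted p up to 0.056). Sema4f differed by 8.41 (adjusted p = 0.0137), lost without heart control library 1 or 2 or heart knockout-labelled library 1 (adjusted p up to 0.0741). Sema6c differed by −1.99 (adjusted p = 0.0428), lost without heart control library 1 or 2, heart knockout-labelled library 1 or 2, liver control library 2 or 3, lung control library 1, 2 or 3 or lung knockout-labelled library 1 or 3 (adjusted p up to 0.16). Plxna1 differed by 1.23 (adjusted p = 0.0365), lost without heart control library 1 or 2, heart knockout-labelled library 1 or 2, lung control library 2 or 3 or lung knockout-labelled library 1 or 3 (adjusted p up to 0.129). Plxnb2 differed by 0.93 (adjusted p = 0.0338), lost without heart control library 1 or 2, heart knockout-labelled library 1 or 2 or lung control library 1 or 3 (adjusted p up to 0.143). Ephb1 differed by −3.16 (adjusted p = 0.0193), lost without heart control library 1 or 2 or heart knockout-labelled library 1 (adjusted p up to 0.102). Unc5c differed by −4.03 (adjusted p = 0.0333), lost without heart control library 2, heart knockout-labelled library 1 or 2, lung control library 1, 2 or 3 or lung knockout-labelled library 1 or 2 (adjusted p up to 0.415).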

How the results depend on the processing

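Depth limited the low members, and 2 heart libraries a group limited heart. With 1 library left out in turn, members were 4 to 7 higher and 9 to 11 lower in liver, 3 to 4 and 3 to 11 in lung, and 2 to 9 and 4 to 11 in heart. Between controls they were 30 to 31 higher and 14 to 17 lower (lung against liver), 22 to 26 and 12 to 17 (heart against liver), and 6 to 10 and 14 to 20 (heart against lung). The change differed for 4 to 10 members between lung and liver, 5 to 11 between heart and liver and 2 to 15 between heart and lung. These counts were 10 without liver knockout-labelled library 3 (lung and liver), 5 without heart control library 1 (heart and liver), and 5, 2, 3, 15 and 5 without heart control library 1 or 2, heart knockout-labelled library 1, liver knockout-labelled library 3 or lung control library 3 (heart and lung). Single values were followed with a library left out only for calls of the main fit and for the knockout changes of Robo4, Ntn4, Efnb2 and Ephb4. Among these values, 2744 kept direction and side of the threshold, 242 lost the call, 5 gained it and 1 reversed. The reversed value was Efnb2 in liver (log2 −0.16, adjusted p = 0.755, without knockout-labelled library 3, with a range of −0.16 to 0.45). Calls gained by other members are not among the 5 and show only in the counts above.

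Members higher in liver numbered 8 without the filter on low counts, with more genes tested, and in heart 10 in a fit of the heart libraries alone. The change differed between lung and liver for 12 members with DESeq2, and between heart and lung for 16 in a fit of these organs alone. The cause was not tested. Other counts stayed within 1.5 times under these settings and under RLE normalization.

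Whether replicate numbers pair the libraries could not be decided. Correlations of same-numbered deviations were −0.051, 0.24 and 0.101 in liver and −0.0676, −0.0797 and 0.0328 in lung. Differently numbered libraries had −0.23 to 0.15 in liver and −0.0722 to 0.119 in lung. With 2 heart libraries a group, the deviations mirror each other, so that the heart value of 0.0465 is only 1 number. With the replicate number as a block, 5 members were higher and 11 lower in liver, 4 and 10 in lung, and 6 and 11 in heart. Among knockout changes Plxna4 in lung (adjusted p = 0.0558) lost the call, and with the numbers of the descriptions Robo2 in heart (0.0811) lost it too. Ephb4 in heart (0.0492) gained it. Gains were followed by name only for Robo4, Ntn4, Efnb2 and Ephb4, so the other members that gained a call are in the counts but are not named. Between controls, a block ended calls of Efna1, Efnb3, Plxna4os1, Sema6b and Ephb6 for heart against liver or lung.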
